A study of Mus musculus with 6 samples.

Results

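The 6 genes described here are Lag3, Havcr2, Cd160, Cd226, Entpd1 and Tox, a group of cell surface receptors, an ectoenzyme and a transcription factor whose expression is often used to describe exhausted or chronically stimulated T cells. They were taken as the probes of the array whose gene symbol is 1 of these 6 names, which gave 6 of 23473 probes, 1 probe for each gene, and each was above the blank spots of the array on all 6 arrays. The genes were measured in T cells of male C57BL/6 mice, taken from the small intestinal epithelium, where intraepithelial lymphocytes (IEL) lie between the gut epithelial cells, or from the spleen (SP). Old IEL CD4+ T cells and old SP CD4+ T cells came from mice labelled 89 weeks old, and young IEL CD4+ T cells and young SP CD4+ T cells from mice labelled 5 weeks old; a slightly different age for the old mice is given in the methods. Sorting was on CD3 and CD4, with a purity above 98%. A further pair of arrays holds old IEL fractions named cd27cd28 and others, which the labels describe as not used in the study. Their gates are not given, so these names are used as they stand. Each group had 1 array with RNA from 4 to 6 mice, and whether their cells were pooled is not stated. No treatment or transgene is given for any group.

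T cells that meet antigen for a long time take on inhibitory receptors, which deliver signals that restrain activation when they bind ligands on other cells. Lag3 binds MHC class II, Havcr2 (TIM-3) binds galectin-9 and other ligands, and Cd160 binds the TNF receptor family member HVEM. Cd226 (DNAM-1) works the other way, as a costimulatory receptor that competes with Tigit and Cd96 for ligands of the nectin family. Entpd1 (CD39) breaks down extracellular ATP, the step before CD73 makes adenosine, and Tox is a nuclear protein of the HMG-box family that is required for the exhausted state of CD8+ T cells and for the development of CD4+ T cells in the thymus. In the gut, many of these molecules are also part of the ordinary outfit of resident T cells.

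Values are given as signal, the scanner intensity above the blank spots after global normalization, in which the median of the detected probes of each array is 25. A gene was called higher or lower between arrays when it differed over 2-fold and its signal passed 100 on the brighter of them, as in the array methods of the study. With 1 array per group there was no spread between mice, no test could be made, and every difference below is a difference between 2 arrays. The only repeated measurement was of control spots, whose SD was 0.127 on the log2 scale for 1 array and 0.18 for the difference of 2 arrays, so that 2 SD of spot error is a gap of 0.36, or 1.28-fold. The share of probes detected lay between 72.2% and 85.1%, with a detection limit between a signal of 1.80 and 2.49. Cd3e had a signal between 68.9 and 305 and Cd4 between 361 and 892 over the 6 arrays. Of the other marker lists, the summed signal over the arrays was 6936 to 13730 for CD4 T cells (7 genes), 57.2 to 138 for B cells (4), 212 to 1469 for myeloid cells (11), 71.5 to 199.6 for endothelium and stroma (7) and 200.5 to 387 for erythroid cells (3). In RNA of a whole sorted fraction, a lower share of cells that express a gene and less RNA per cell cannot be told apart.

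Lag3, the CD4-related inhibitory receptor, had a signal under 100 on every array. Its signal was 34.3 in the cd27cd28 fraction, 50.6 in the others fraction, 37.2 in old IEL CD4+ T cells, 23.4 in young IEL CD4+ T cells, 49.4 in old SP CD4+ T cells and 15.8 in young SP CD4+ T cells. The 4 arrays of old mice were all above both arrays of young mice, and the lowest level was that of young SP. The gap between the brightest and the dimmest array was 3.20-fold. Neighbours in the order that lay within 2 SD of spot error were the others fraction and old SP, and old IEL and the cd27cd28 fraction.

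Havcr2, which encodes the inhibitory receptor TIM-3, was close to the detection limit throughout. The signal was 10.7 in the cd27cd28 fraction, 11.2 in the others fraction, 6.00 in old IEL, 4.91 in young IEL, 5.01 in old SP and 5.73 in young SP CD4+ T cells. Both old IEL fractions lay above the other 4 arrays, which differed from one another by less than 2 SD of the blank spots in each of the 4 comparisons among them. Its probe was at 2.13 to 6.26 times the detection limit of the array, so an order among the 4 CD4+ T cell arrays could not be read at this signal. The RefSeq promoter table (GRCm38.p6) holds 1 window for Havcr2, which contains the RUNX letters TGTGGT and the AP-1 letters TGANTCA; it is not printed, since the gene hardly varied among the CD4+ T cell arrays.

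Cd160, the GPI-anchored receptor for HVEM, had the widest range of the 6 genes. Its signal was 963 in the cd27cd28 fraction, 704 in the others fraction, 589 in old IEL and 387 in young IEL CD4+ T cells, against 31.0 in old SP and 25.3 in young SP CD4+ T cells. All 4 IEL arrays stood far above both SP arrays, and the nearest IEL and SP arrays, young IEL and old SP, were 12.5-fold apart. The brightest array exceeded the dimmest 38.03-fold. Among neighbours, the others fraction and old IEL, and old SP and young SP, lay within 2 SD of spot error.

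Since the site difference of Cd160 was the widest seen here, the 250 bases upstream of its RefSeq start sites are shown, 5′ to 3′ on the strand of the gene, from the RefSeq promoter table of build GRCm38.p6. Window 1 is chr3:96829352-96829601 and window 2 is chr3:96814522-96814771, both on the minus strand, and capitals mark the letters that matched a searched motif on either strand.
Cd160 window 1: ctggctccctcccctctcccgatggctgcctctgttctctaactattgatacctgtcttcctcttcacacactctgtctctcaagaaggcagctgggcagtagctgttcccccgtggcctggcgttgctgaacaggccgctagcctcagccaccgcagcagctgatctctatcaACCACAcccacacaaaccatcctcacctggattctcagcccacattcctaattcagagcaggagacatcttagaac
Cd160 window 2: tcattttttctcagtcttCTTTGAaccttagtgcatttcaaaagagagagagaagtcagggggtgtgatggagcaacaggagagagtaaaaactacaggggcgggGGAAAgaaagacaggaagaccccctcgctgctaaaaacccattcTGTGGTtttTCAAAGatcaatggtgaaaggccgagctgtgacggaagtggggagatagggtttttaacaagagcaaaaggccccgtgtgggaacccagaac
Window 1 holds the RUNX letters TGTGGT read on the other strand (ACCACA), and window 2 holds TGTGGT, the TCF1/LEF1 letters TCAAAG once on each strand, and the NFAT letters GGAAA. RUNX letters are found in 14% of the 32851 promoter windows of the table, TCF1/LEF1 letters in 13.8% and NFAT letters in 55.6%. These matches describe the sequence and are no evidence that a factor binds there.

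Cd226, the costimulatory receptor DNAM-1, was also an IEL gene on these arrays. It had a signal of 1114 in the cd27cd28 fraction, 603 in the others fraction, 367 in old IEL and 438 in young IEL CD4+ T cells, against 163 in old SP and 123 in young SP CD4+ T cells. The 4 IEL arrays were again above both SP arrays, and the nearest, old IEL and old SP, differed 2.25-fold. The range over the 6 arrays was 9.09-fold, and of the 5 neighbouring pairs only young IEL and old IEL lay within 2 SD of spot error. The log2 signals of Cd160 and Cd226 correlated with a Pearson r of 0.94 over the 6 arrays, the highest of the pairs formed among the 6 genes; this describes arrays that share one scaling and, in part, one tissue.

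Entpd1, the ectonucleotidase CD39, followed another pattern. Its signal was 4.72 in the cd27cd28 fraction, 16.2 in the others fraction, 16.3 in old IEL and 25.8 in young IEL, against 25.6 in old SP and 3.20 in young SP CD4+ T cells. Young SP and the cd27cd28 fraction were low, and young IEL and old SP were high and within spot error of each other. The others fraction and old IEL were also within spot error of each other. The young SP value was only 1.31 times the detection limit of its array and that of the cd27cd28 fraction 2.27 times, so that folds against these arrays are imprecise. The fold that remains after moving both signals by 2 SD of the blank spots towards each other is therefore given with the comparisons.

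RefSeq gives 2 promoter windows for Entpd1. Window 1 held none of the 6 motifs searched, and window 2, chr19:40659520-40659769 on the plus strand of GRCm38.p6, held the NFAT letters GGAAA at 2 places. It is shown, with the NFAT letters in capitals, because Entpd1 had the largest age difference of the 6 genes in the values reported, that in the spleen. That difference rests on a young SP signal near the detection limit, and under normexp it was smaller than that of Lag3.
Entpd1 window 2: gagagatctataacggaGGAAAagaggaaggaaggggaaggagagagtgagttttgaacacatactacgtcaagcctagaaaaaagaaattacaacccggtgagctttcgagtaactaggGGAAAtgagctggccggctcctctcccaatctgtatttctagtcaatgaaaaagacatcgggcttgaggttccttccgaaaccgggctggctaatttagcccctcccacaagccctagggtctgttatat
No windows were matched for Lag3, Tox and Cd226. The other motifs searched were the T-box letters AGGTGTGA and the ETS letters CCGGAA, present in 1.12% and 12% of all windows on either strand, with the AP-1 letters TGANTCA in 6.75%; none of these 3 was found in the Cd160 or Entpd1 windows.

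Tox, the only transcription factor of the group, had a signal over 100 on all 6 arrays. Its signal was 142 in the cd27cd28 fraction, 349 in the others fraction, 260 in old IEL, 171 in young IEL, 335 in old SP and 228 in young SP CD4+ T cells. The cd27cd28 fraction was lowest, and old SP and the others fraction were highest and within spot error of each other. Its range of 2.46-fold was narrow beside those of Cd160 and Cd226. Old IEL and young SP, and young IEL and the cd27cd28 fraction, were neighbours within spot error. Over the 6 genes, 14 of 30 neighbouring pairs in these orders were within 2 SD of spot error. This count leaves out the noise of the blank spots, which matters for dim genes. Entpd1 in the cd27cd28 fraction (4.72) and in young SP (3.20) was counted as apart. Yet 2 SD of the blank spots were 2.08 and 2.44 on those arrays.

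**Figure D1:**
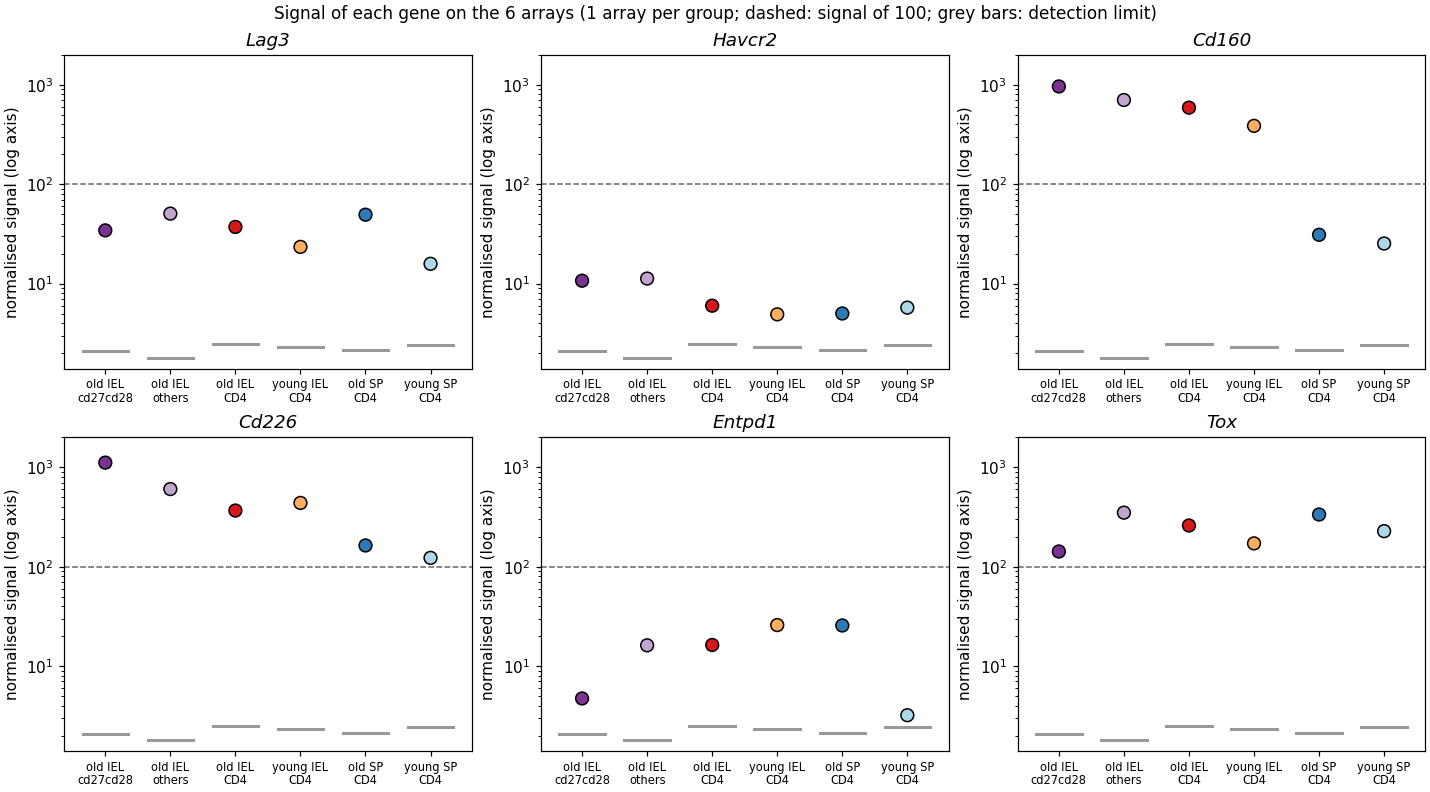
Normalised signal of each gene on a log axis, with 1 point per array, from the old IEL cd27cd28 fraction on the left to young SP CD4+ T cells on the right; the dashed line is a signal of 100 and grey bars are the detection limit of each array. Cd160 has 4 IEL points between 387 and 963 and SP points of 31.0 and 25.3, whereas Havcr2 stays at or under 11.2 on all arrays.

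The signals above leave the local background around each spot uncorrected, and this matters for Cd160 and Tox. For Tox the scanner intensity of the spot was 407 in old IEL, 311 in young IEL, 478 in old SP and 323 in young SP CD4+ T cells, while the local background was 442 in old IEL, 310 in young IEL, 521 in old SP and 341 in young SP. The Tox spot was thus below its surroundings on 3 arrays and level with them on young IEL, and in the cd27cd28 and others fractions it was only 1.03 and 1.06 times its surroundings. The Cd160 spot was 1.09 to 1.31 times its local background over the 6 arrays, and the Cd226 spot 1.54 to 4.96 times. Local background followed the intensity of its own spot over all probes, with a Pearson r between 0.961 and 0.984 per array, and the part of this in the signals of the 6 genes was not tested. Subtracting the local background by a model (normexp) gave Tox levels of 22.3 in the cd27cd28 fraction, 27.4 in the others fraction, 18.1 in old IEL, 21.1 in young IEL, 17.9 in old SP and 19.4 in young SP CD4+ T cells, in which the excess of both old arrays over the young arrays was turned round. On the same scale Cd160 was 42.7 in the cd27cd28 fraction, 41.9 in the others fraction, 76.7 in old IEL and 51.2 in young IEL, against 23.9 in old SP and 25.01 in young SP, so the 4 IEL arrays remained above both SP arrays with a smaller gap.

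**Figure D2:**
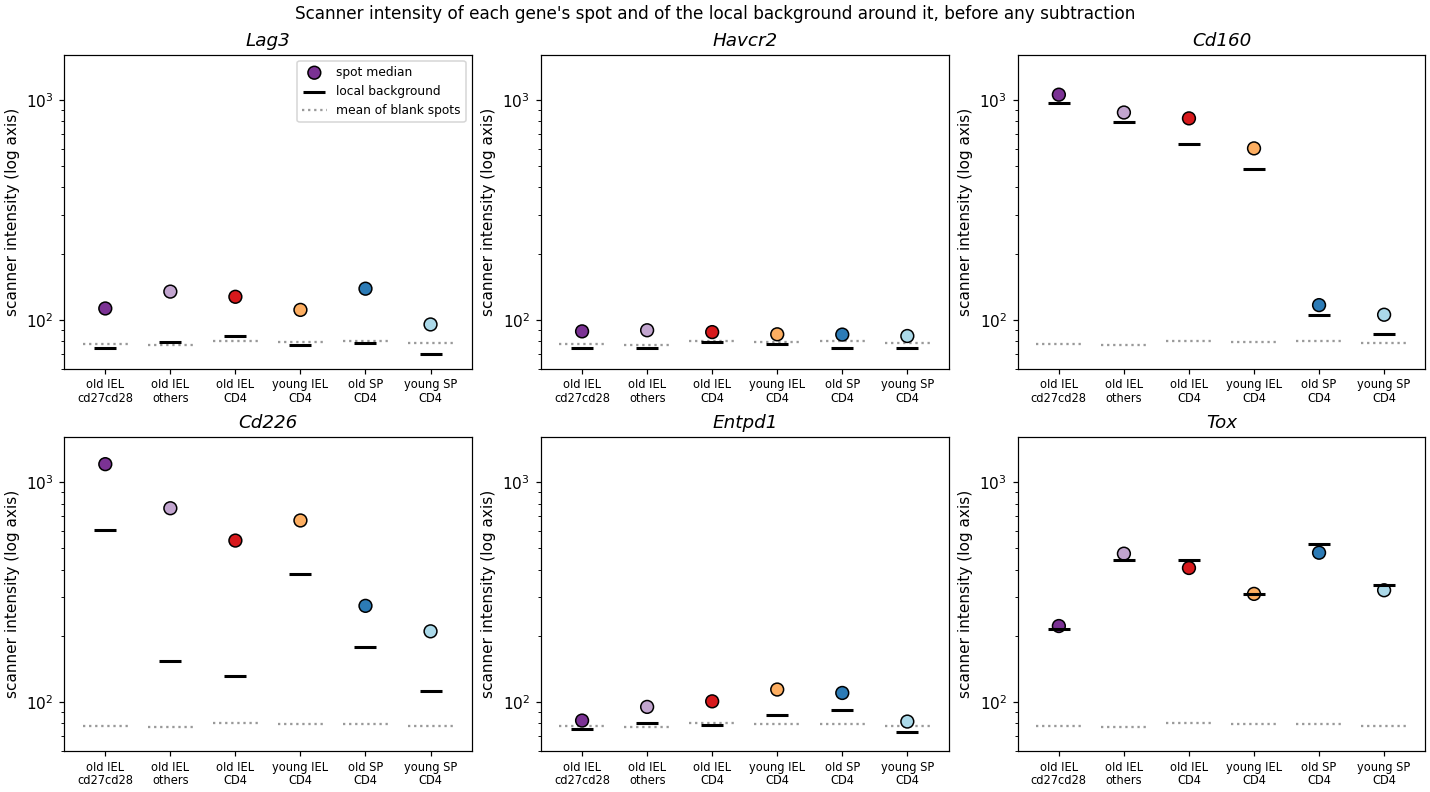
Scanner intensity (log axis) of the spot of each gene (points), of the local background around it (black bars) and the mean of the blank spots (dotted), before any subtraction, with 1 array per column. The Tox points lie on or below their background bars on the 4 CD4+ T cell arrays and the Cd226 points lie at 1.54 to 4.96 times theirs.

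The comparison of old with young IEL CD4+ T cells asks how age alters these genes in the gut epithelium. Lag3, Cd160 and Tox were 1.51- to 1.59-fold higher in old IEL, and Entpd1 was 1.59-fold higher in young IEL. No gene of the group passed the 2-fold call, in either direction, out of the 3 with a signal over 100; over all 4807 probes with such a signal, 2.68% were called higher and 3.72% lower. With the signal minimum left out the count was still 0 of 6, against 2.8% higher and 3.95% lower over all probes.

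Cd160 had a signal of 589 in old IEL and 387 in young IEL, a log2 difference of 0.61. Lag3 had 37.2 in old IEL and 23.4 in young IEL (0.67), and Tox 260 in old IEL and 171 in young IEL (0.60). These 3 differences were over 3 SD of spot error and stood against a median of -0.09 over all probes, but that of Tox changed sign under the normexp correction (-0.22). That of Lag3 shrank under it, to levels of 31.7 in old IEL and 28.9 in young IEL. After moving both signals by 2 SD of the blank spots the fold was 1.35 for Lag3 and 1.25 for Entpd1. Entpd1 had 16.3 in old IEL and 25.8 in young IEL (-0.66), whereas Cd226, at 367 in old IEL and 438 in young IEL (-0.25), was within spot error and changed sign under normexp (0.51). Havcr2, at 6.00 in old IEL and 4.91 in young IEL, differed by less than 2 SD of the blank spots.

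Genes that work with the group gave a mixed picture in old IEL CD4+ T cells. Beside 2.68% higher and 3.72% lower over all probes, 2 of 7 other inhibitory receptors with a signal over 100 were called higher and 1 lower. They were Cd244a, a SLAM family receptor of cytotoxic cells, with 1499 in old IEL and 169 in young IEL (3.15), Cd200r1, with 235 in old IEL and 50.9 in young IEL (2.21), and Lilrb4a, with 183 in old IEL and 524 in young IEL (-1.52). The galectin gene Lgals3, whose product is a ligand of Lag3, had 336 in old IEL and 153 in young IEL (1.13) and was the only call among the 4 ligands and paired receptors over 100. Among 9 transcription factors tied to exhaustion, the nuclear receptor Nr4a2 was called higher (808 in old IEL, 314 in young IEL) and Nfatc3 lower (154 in old IEL, 345 in young IEL), with a median of -0.12 over these 9 and of -0.09 over the 16 detected, beside -0.09 over all genes. Neither of the 2 ATP and adenosine genes over 100 was called, and Nt5e, the CD73 gene that acts after Entpd1, was dim, with 16.2 in old IEL and 15.7 in young IEL. The summed signal of 12 epithelial markers was 446 in old IEL and 808 in young IEL, and without Reg3b, which alone had 15.1 in old IEL and 446 in young IEL, it was 431 in old IEL and 363 in young IEL. Single markers ran both ways: of 11 detected on both arrays 2 were over 2-fold higher in old IEL (Fabp2, 74.8 in old IEL and 10.9 in young IEL, and Cdh1, 61.1 in old IEL and 20.3 in young IEL) and 3 lower, with a median of 0.08. Over all probes 2.8% were higher and 3.95% lower without the signal minimum. The part of epithelial cells in the differences of the 6 genes was not tested.

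The same comparison in the spleen asks how age alters the genes in a lymphoid organ. Here the largest differences were those of Entpd1 and Lag3, which were several fold higher in old SP CD4+ T cells, while Havcr2, Cd160, Cd226 and Tox differed by at most 1.47-fold. Entpd1 had a signal of 25.6 in old SP and 3.20 in young SP, 7.995-fold, and Lag3 49.4 in old SP and 15.8 in young SP, 3.12-fold. Because all of these signals were under 100, neither counted as called, and the count was 0 of 2 genes over 100, where 4.15% of 5302 probes were called higher and 1.15% lower. Without the signal minimum both were over 2-fold higher, 2 of 6 genes, against 4.09% of all probes higher and 1.56% lower. After moving both signals by 2 SD of the blank spots the folds were 4.16 for Entpd1 and 2.59 for Lag3.

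Under normexp, which brings dim probes close to one another, these differences shrank to a log2 difference of 0.14 for Entpd1 and 0.40 for Lag3, with their direction unchanged. Tox had 335 in old SP and 228 in young SP (0.56) and Cd226 163 in old SP and 123 in young SP (0.41), both over 2 SD of spot error, and both with the opposite sign under normexp (-0.11 for Tox and -0.03 for Cd226). Cd160, at 31.0 in old SP and 25.3 in young SP (0.29), was within spot error, and so was Havcr2 (-0.20), and both also changed sign under normexp.

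**Figure D3:**
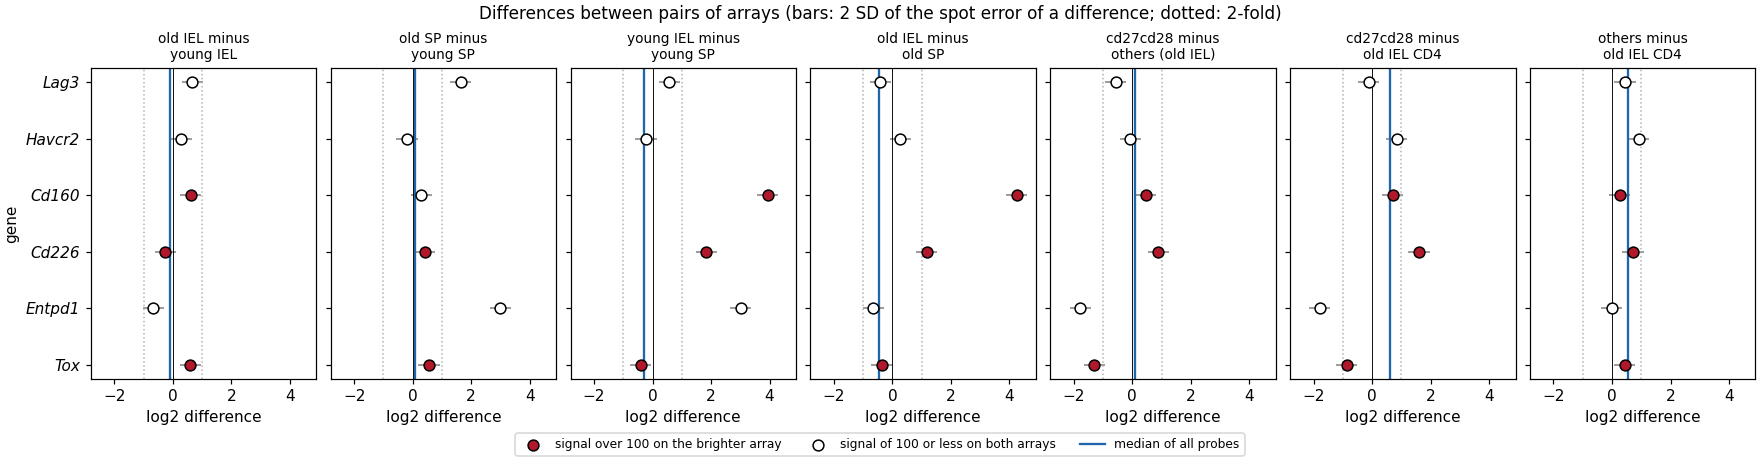
Log2 difference of each gene between 2 arrays, for 7 pairs of arrays, with bars of 2 SD of spot error and the median of all probes as a blue line; filled points have a signal over 100 on the brighter array, open points do not. Entpd1 is at 2.999 in the spleen age comparison and at -0.66 in the IEL age comparison, and Cd160 is at 3.93 and 4.25 in the comparisons of IEL with SP.

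Among exhaustion-linked transcription factors, 4 of 8 with a signal over 100 were called higher in old SP CD4+ T cells and 0 lower, beside 4.15% higher and 1.15% lower over all probes. Tbx21 (-0.12) and Tox4 (0.00) hardly differed, and the median of the 16 detected was 1.07, against 0.07 over all genes. The largest was Bhlhe40, with 526 in old SP and 24.999 in young SP, followed by Irf4, with 374 in old SP and 118 in young SP, and Batf, with 1081 in old SP and 408 in young SP; Irf4 and Batf act together downstream of the T cell receptor. Other inhibitory receptors had 2 of 6 called higher, Pdcd1 (PD-1) with 226 in old SP and 31.9 in young SP and Ctla4 with 4869 in old SP and 923 in young SP. Among 9 genes of stem-like T cells the 2 calls were the follicular homing receptor Cxcr5, with 931 in old SP and 72.9 in young SP, and the chemokine Xcl1, with 205 in old SP and 15.5 in young SP. Inpp5d, the phosphatase SHIP1, was the 1 call among 7 signalling partners (120 in old SP, 53.7 in young SP), and 0 of 3 ligands and paired receptors and 0 of 3 ATP and adenosine genes were called. Nt5e had 18.5 in old SP and 2.81 in young SP, both under 100.

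CD39 is known on regulatory T cells, and markers of these cells also differed with age in the spleen. All 7 regulatory T cell markers were detected on each array, and 3 of 5 over 100 were called higher in old SP, beside 4.15% of all probes. The summed signal of the 7 was 15688 in old SP and 5399 in young SP. Most of it was Izumo1r (8294 in old SP, 2977 in young SP) and Ctla4, which is also counted among the inhibitory receptors above. Il2ra had 163 in old SP and 158 in young SP. The sum did not follow Foxp3 over the arrays: young IEL had the highest sum (17246) and the lowest Foxp3 (13.1). The defining marker Foxp3 had 41.4 in old SP and 29.9 in young SP. The part of these cells in the Entpd1 and Lag3 differences was not tested.

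Whether age moved a gene by different amounts at the 2 sites was described by subtracting the spleen difference from the IEL difference. For Entpd1 this gave -3.66 on the log2 scale, which rests on the young SP signal near the detection limit: it was -2.38 after moving each signal by 2 SD of the blank spots, and -0.17 under normexp. For Lag3 it gave -0.98, for Cd226 -0.67, for Havcr2 0.48, for Cd160 0.32 and for Tox 0.04. The Lag3 value was -0.46 after moving each signal by 2 SD of the blank spots. The Cd226 value changed sign under normexp. Cd226 levels there were 141 in old IEL, 98.6 in young IEL, 44.5 in old SP and 45.4 in young SP. None of the 3 genes over 100 was called, against 2.75% of 5600 probes called higher and 9.91% lower, and without the signal minimum Entpd1 was called lower, against 3.66% higher and 10.6% lower over all probes. For Tox, Cd160 and Havcr2 the value was within 2 SD of the spot error of such a difference, which has an SD of 0.255.

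Young IEL and young SP CD4+ T cells were compared to see how the genes differ between gut and spleen before old age. Cd160, Cd226 and Entpd1 were higher in young IEL, by 15.3-fold, 3.57-fold and 8.07-fold. Cd160 had 387 in young IEL and 25.3 in young SP, Cd226 438 in young IEL and 123 in young SP, and Entpd1 25.8 in young IEL and 3.20 in young SP. Of 3 genes over 100, 2 (Cd160 and Cd226) were called higher and 0 lower, against 7.73% higher and 10.3% lower of 5267 probes. Without the signal minimum Entpd1 was the third, 3 of 6 genes, against 5.28% higher and 11.6% lower over all probes, and its fold was 4.17 after moving both signals by 2 SD of the blank spots; under normexp its log2 difference was 0.23.

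Lag3 had 23.4 in young IEL and 15.8 in young SP (0.57), above spot error. Its fold was 1.16 after moving both signals by 2 SD of the blank spots. Under normexp its levels were 28.9 in young IEL and 26.3 in young SP. Tox had 171 in young IEL and 228 in young SP (-0.41), not far from the median of all probes, which was -0.29, and of opposite sign under normexp (0.12). Havcr2, at 4.91 in young IEL and 5.73 in young SP (-0.22), changed sign under quantile normalization (0.21) and once the median of all probes was subtracted (0.06). The normexp correction left Cd160 and Cd226 over 2-fold higher in young IEL (1.03 and 1.12), but with signals under 100 on both arrays, so that neither was called.

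Among related genes, 5 of 9 exhaustion-linked transcription factors were called higher in young IEL and 0 lower, beside 7.73% higher and 10.3% lower over all probes. The transcription factors were led by Bhlhe40 (1689 in young IEL, 24.999 in young SP), Nr4a2 (314 in young IEL, 8.28 in young SP) and Irf4 (935 in young IEL, 118 in young SP). Stem-like genes had 4 of 7 called lower, among them Bach2 (49.1 in young IEL, 322 in young SP) and Id3 (37.2 in young IEL, 211 in young SP), and 1 higher, Xcl1 (1196 in young IEL, 15.5 in young SP). Btla, an inhibitory receptor that shares the ligand HVEM with Cd160, was lower, with 226 in young IEL and 614 in young SP. Ctla4 had 14202 in young IEL and 923 in young SP. Lilrb4a (524 in young IEL) and Cd244a (169 in young IEL) had no signal above the blank spots in young SP, so no difference was formed for them. For Tnfrsf14, which encodes HVEM itself, the signal was 6.65 in young IEL and 7.001 in young SP.

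The same site comparison in old mice again put Cd160 and Cd226 higher in IEL. Entpd1, Lag3 and Tox were lower by less than 2-fold, in a pair whose median over all probes was -0.46. Cd160 had 589 in old IEL and 31.0 in old SP, 19.0-fold, and Cd226 367 in old IEL and 163 in old SP, 2.25-fold. These were the 2 genes called higher of 3 over 100, with 0 lower, against 4.5% higher and 12.8% lower of 5312 probes. The count was also 2 of 6 without the signal minimum, against 3.27% higher and 15.7% lower over all probes. Entpd1 had 16.3 in old IEL and 25.6 in old SP (-0.65), and Lag3 37.2 in old IEL and 49.4 in old SP (-0.41). Tox had 260 in old IEL and 335 in old SP (-0.37).

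The median of all probes in this pair was -0.46, and with it subtracted the differences of Lag3 and Tox changed sign (0.05 and 0.09) and that of Entpd1 was -0.19. Cd226 was the only gene called under normexp (1.66), and Cd160 differed by 1.68 there without reaching a signal of 100. Entpd1 and Tox changed sign under normexp (0.06 and 0.02), and Havcr2, at 6.00 in old IEL and 5.01 in old SP, differed by less than 2 SD of the blank spots.

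Of 9 stem-like genes, 7 were called lower in old IEL than in old SP and 1 higher. Over all probes 12.8% were called lower and 4.5% higher, and the median difference of all probes was -0.46. Lef1 had 29.7 in old IEL and 343 in old SP, Id3 27.3 in old IEL and 274 in old SP, and Bach2 30.8 in old IEL and 258 in old SP, with Xcl1 (2222 in old IEL, 205 in old SP) the higher one. Other inhibitory receptors had 3 of 7 called higher and 1 lower. Cd244a, with 1499 in old IEL and no signal above the blank spots in old SP, is not in this count. Lilrb4a (183 in old IEL, 21.6 in old SP) and Cd200r1 (235 in old IEL, 58.3 in old SP) were higher, and Pdcd1 (40.6 in old IEL, 226 in old SP) was lower. Cd96, which competes with Cd226 for its ligand, had 3246 in old IEL and 1073 in old SP (1.60), and Btla had 220 in old IEL and 584 in old SP (-1.41). Lgals3 was also higher (336 in old IEL, 21.6 in old SP), and Lgals9, which encodes the Havcr2 ligand galectin-9, was lower (105 in old IEL, 210 in old SP).

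Cd160 and Cd226 are also known from CD8+, gamma delta T and NK cells, whose markers were set beside the site differences. Of 8 markers of CD8 and gamma delta T cells 3 had a named probe, with a summed signal of 1842 in old IEL and 425 in old SP, and 851 in young IEL and 545 in young SP. Cd8a had 1535 in old IEL and 11.4 in old SP, and 128 in young IEL with no signal above the blank spots in young SP. It made up most of the old IEL sum. The study reports that old IEL CD4+ T cells themselves express Cd8a, so it does not mark CD8+ cells alone here. Cd8b1 had 231 in old IEL and 321 in old SP, and 643 in young IEL and 465 in young SP. Its site difference was -0.48 in old mice, beside -0.46 over all genes, and 0.47 in young mice. Of 9 NK and innate lymphoid markers 7 had a named probe, with a summed signal of 353 in old IEL and 355 in old SP, and 266 in young IEL and 238 in young SP. Members of this list ran in opposite directions. Tyrobp had 67.6 in old IEL and 20.5 in old SP, and 44.3 in young IEL and 15.004 in young SP, and Rora had 135 in old IEL and 26.5 in old SP, and 104 in young IEL and 18.8 in young SP. Gata3, which helper T cells also express, had 114 in old IEL and 277 in old SP, and 96.6 in young IEL and 195 in young SP. The list median was 0.62 for old IEL against old SP, beside -0.46 over all genes, and 1.56 for young IEL against young SP, beside -0.28. Ncr1, a defining NK cell gene, was near the detection limit, with 2.69 in old IEL, 2.51 in young IEL, 4.98 in old SP and 5.78 in young SP. The part of CD8+ and NK or innate lymphoid cells in the Cd160 and Cd226 differences was not tested.

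**Figure D4:**
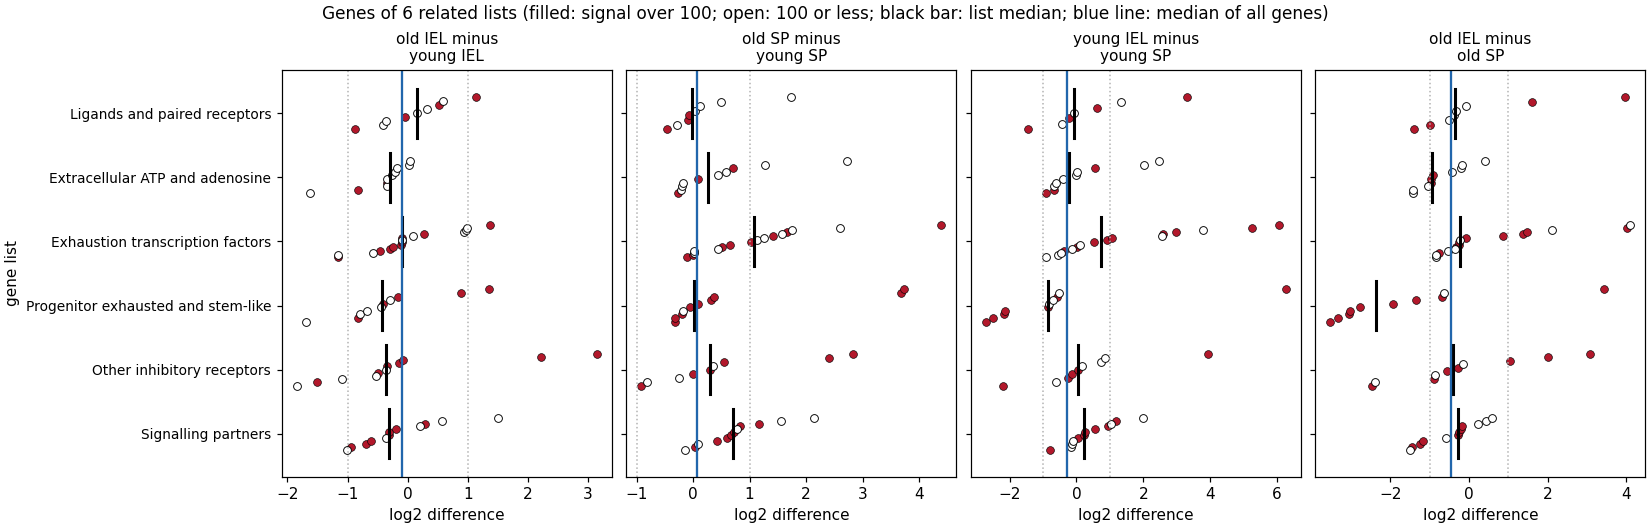
Log2 difference of each detected gene of 6 related lists in 4 comparisons (columns); filled points have a signal over 100 on the brighter array, black bars are list medians and the blue line is the median of all genes. The list of exhaustion transcription factors has a median of 1.07 for old minus young SP and -0.09 for old minus young IEL.

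The old IEL fractions were compared with each other to see whether the genes differ within the old gut T cells. Tox and Entpd1 were lower in the cd27cd28 fraction than in the others fraction, while Cd226 and Cd160 were higher by 1.85-fold and 1.37-fold, gaps that were gone under normexp. Tox had 142 in the cd27cd28 fraction and 349 in the others fraction (-1.30), and was the 1 gene called lower of 3 over 100, with 0 higher, against 2.75% lower and 0.543% higher of 5521 probes. Entpd1 had 4.72 in the cd27cd28 fraction and 16.2 in the others fraction (-1.78), and brought the count to 2 of 6 lower without the signal minimum, against 3.12% lower and 1.15% higher over all probes. The Entpd1 fold was 2.11 after moving both signals by 2 SD of the blank spots. Tox differed by -0.30 and Entpd1 by -0.10 under normexp, and neither was called there.

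Cd226 had 1114 in the cd27cd28 fraction and 603 in the others fraction (0.88; -0.000196 under normexp). Cd160 had 963 in the cd27cd28 fraction and 704 in the others fraction (0.45; 0.03 under normexp), and Lag3 34.3 in the cd27cd28 fraction and 50.6 in the others fraction (-0.56), each over 2 SD of spot error before the normexp correction. Havcr2 differed by less than spot error (-0.07). Cd28 itself had 851 in the cd27cd28 fraction and 4608 in the others fraction, and Cd27 37.97 in the cd27cd28 fraction and 65.4 in the others fraction. Of 11 stem-like genes detected, 7 were over 2-fold lower in the cd27cd28 fraction without the signal minimum, 2 of 4 with it, which were Cd28 and Cxcr5 (15.1 in the cd27cd28 fraction, 199 in the others fraction). Both counts include Cd28, a gene for which the fraction is named. Over all probes 3.12% were lower without the signal minimum and 2.75% with it. Dpp4, a peptidase that anchors adenosine deaminase, was the 1 call of 2 in the ATP and adenosine list (98.6 in the cd27cd28 fraction, 224 in the others fraction).

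The others fraction held more signal of gut epithelial genes. The summed signal of 12 epithelial markers was 647 in the cd27cd28 fraction and 2222 in the others fraction (without Reg3b, 619.6 in the cd27cd28 fraction and 1171 in the others fraction), 5 of 12 were over 2-fold lower in the cd27cd28 fraction and 0 higher, with Krt8 at 6.89 in the cd27cd28 fraction and 375 in the others fraction and Reg3b at 26.9 in the cd27cd28 fraction and 1052 in the others fraction. Over all probes 3.12% were lower and 1.15% higher in the cd27cd28 fraction without the signal minimum. Lyz2, a lysozyme gene of macrophages and 1 of 11 myeloid markers, had 12.2 in the cd27cd28 fraction and 711 in the others fraction. The 7 regulatory T cell markers summed to 11290 in the cd27cd28 fraction and 16277 in the others fraction. Most of this was Ctla4, with 10227 in the cd27cd28 fraction and 12438 in the others fraction. Foxp3 had 16.9 in the cd27cd28 fraction and 24.9 in the others fraction. Their part in the lower Tox and Entpd1 signals was not tested.

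Each fraction was also set against old IEL CD4+ T cells. The median over all probes was above 0 in these pairs, at 0.61 for the cd27cd28 fraction and 0.54 for the others fraction, so values are read against that shift. Cd226 had 1114 in the cd27cd28 fraction and 367 in old IEL CD4+ T cells (1.60), and was the 1 gene called higher of 3 over 100, with 0 lower, against 9.44% higher and 1.41% lower of 5330 probes. With the shift subtracted Cd226 differed by 0.99 and was no longer called, and under normexp it differed by 0.43. Entpd1, at 4.72 in the cd27cd28 fraction and 16.3 in old IEL CD4+ T cells (-1.79), was lower without the signal minimum, where 1 of 6 genes was higher and 1 lower, against 16% higher and 1.3% lower over all probes. Tox had 142 in the cd27cd28 fraction and 260 in old IEL CD4+ T cells (-0.87), which became -1.48 after the shift was subtracted, where Tox was the 1 gene called, and 0.30 under normexp. Cd160 (0.71), Havcr2 (0.84) and Lag3 (-0.11) lay 0.10, 0.22 and -0.73 from the median of all probes, and the difference of Cd160 changed sign under normexp (-0.85). The Havcr2 fold was 1.02 after moving both signals by 2 SD of the blank spots.

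In the others fraction 0 of 3 genes over 100 were called, against 3.11% higher and 0.133% lower of 5275 probes, and 0 of 6 without the minimum, against 11.1% higher and 0.243% lower over all probes. Entpd1 had 16.2 in the others fraction and 16.3 in old IEL CD4+ T cells (-0.01), and Havcr2 11.2 in the others fraction and 6.00 in old IEL CD4+ T cells (0.91). The Havcr2 fold was 1.11 after moving both signals by 2 SD of the blank spots. With the shift of 0.54 subtracted, Havcr2 differed by 0.37 and Entpd1 by -0.55, the widest of the 6. Relative to the shift, Lag3, Cd160 and Tox changed sign (-0.09, -0.28 and -0.11), and they did so under quantile normalization too.

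For each of the 6 genes the 3 genes with the most similar pattern were taken, by the Pearson r of log2 signal over the 6 arrays, from about 4730 genes detected on all arrays with a signal over 100 on at least 1. With 6 arrays and so many candidates, high values of r are found for any gene, and the arrays share one scaling. For Cd160 they were Ctsw (r = 0.9996), which encodes a cysteine protease of cytotoxic cells, Gzma (r = 0.9987), a granzyme of cytotoxic granules, and Ncf1 (r = 0.998), a subunit of the NADPH oxidase. Gzma had 16018 in the cd27cd28 fraction, 10347 in the others fraction, 7895 in old IEL and 2894 in young IEL, against 6.81 in old SP and 6.45 in young SP. For Cd226 the genes were Ubac2, Sox8 and Mta3 (r = 0.996 each).

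Entpd1 was matched most closely by Serpina3f (r = 0.96), Tnfsf11 (r = 0.94), which encodes the TNF family cytokine RANKL, and Gadd45g (r = 0.93). Tnfsf11 had 217 in the cd27cd28 fraction, 563 in the others fraction, 350 in old IEL and 540 in young IEL, against 682 in old SP and 209 in young SP. For Lag3 the genes were Pear1 (r = 0.97), Sdcbp2 (r = 0.97) and the lactate transporter gene Slc16a3 (r = 0.95). Tox was followed by Rabgap1l (r = 0.95), Arfgef1 (r = 0.94) and Tnfsf8 (r = 0.91), the ligand of CD30. For Havcr2, whose pattern is set by the step between the fractions and the other arrays, they were Tbca (r = 0.995), Tmem39a (r = 0.994) and Aebp2 (r = 0.994).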

How the data were processed

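RNA of sorted T cells was labelled with 1 dye (Cy5) and hybridised to Toray 3D-Gene mouse 24k arrays, 1 array per group. The deposited scanner files hold, for every spot, its median intensity and that of its surroundings, merged from 3 gains without subtraction, and the authors also deposited a table of normalized intensity with a median of 25 per array. These values were rebuilt from the scanner files: the mean of 384 blank spots, 5% left out at each end, was subtracted, probes more than 2 blank SD above it were taken as detected, and the median of the detected probes was set to 25. The exact rule of the authors is not known, and the Pearson r between the rebuilt and the deposited values was 1 for all 6 arrays. No aligner or genome build applies, and the array names no build.

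Differences are log2 differences of 2 arrays over probes detected on both, called when over 2-fold with a signal over 100. The number of arrays limits the precision. A named gene was found for 20690 probes. The 6 genes, and the 6 related gene lists (75 of 89 genes with a named probe) and 9 marker lists, were chosen with earlier results of these data known. Named genes were the 6 genes, the 3 genes most like each, up to 3 called genes per list and comparison, and markers; Nt5e and Tnfrsf14 were named outside this rule for their known roles.

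Alternatives were quantile normalization, scaling to the 75th percentile, log2 of the signal plus 16, normexp by limma 3.58.1 (R 4.3.3, offset 50), a threshold of 3-fold, a signal minimum of 200 or none, undetected probes at the lowest detected signal, the authors' value table and the brightest probe; subtracting the median difference of all probes was added after seeing the data. The steps were tested on simulated data with spot error and the noise of the blank spots as the only noise. Python 3.11.15, numpy 2.4.6, pandas 2.3.3 and matplotlib 3.10.9 were used.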

Additional observations from a re-analysis of the deposited data

Results flagged for a closer look

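For 4 of the 6 genes a difference ran in opposite directions at the 2 sites or at the 2 ages. The share of all probes with such a turn was not counted, so this number is not read as particular to the group. None of these contrasts was tested, since each rests on 1 array per group. Entpd1 had an age difference (old minus young, log2) of -0.66 in IEL and 2.999 in SP, and a site difference (IEL minus SP) of -0.65 in old mice and 3.01 in young mice; all of these involve signals under 100, and under normexp the old site difference was 0.06, of the same sign as in young mice. Lag3 had a site difference of -0.41 in old mice and 0.57 in young mice, but with the median of all probes subtracted the old value was 0.05, of the same sign as the young one. Cd226 had an age difference of -0.25 in IEL, within spot error, and 0.41 in SP, and both signs were turned under normexp (0.51 and -0.03). Havcr2 had an age difference of 0.29 in IEL and -0.20 in SP, and a site difference of 0.26 in old mice and -0.22 in young mice, all within spot error and within 2 SD of the blank spots.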

How the results depend on the processing

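No paired analysis was possible because each group has 1 array. No difference of the 6 genes called in the values reported was reversed under any alternative able to change a difference. The 3-fold threshold, the signal minima, the rule for undetected probes and the brightest probe were not, with 1 detected probe per gene. Scaling to the 75th percentile and the authors' value table moved no difference beyond spot error. In the cd27cd28 fraction against old IEL CD4+ T cells, Tox was called lower with the median of all probes subtracted (-1.48) and under quantile normalization. Its normexp levels ran the other way, 22.3 in the cd27cd28 fraction and 18.1 in old IEL CD4+ T cells. Normexp moved 42 of the 48 differences and changed the sign of 17, quantile normalization changed the sign of 4 and subtraction of the median of all probes of 6, none of them called before or after. The cause was not tested. Counts of called genes became 0 for young IEL against young SP, 1 for old IEL against old SP, 0 for the cd27cd28 against the others fraction and 0 for the cd27cd28 fraction against old IEL CD4+ T cells under normexp; 2 for the last pair under quantile normalization, with Tox lower (with the median of all probes subtracted the count stayed 1 but the gene was Tox, lower, in place of Cd226, higher); 2 for old SP against young SP, 2 for each cd27cd28 comparison and 1 for the difference of age differences with no signal minimum; and, at 3-fold, 1 for old IEL against old SP and 0 for the cd27cd28 against the others fraction. In the level orders, array pairs that turned beyond spot error were 10 for Tox, 5 for Cd160, 3 for Cd226 and 2 for Entpd1 under normexp, and 2 each for Lag3 and Tox under quantile normalization.

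The share of higher calls among all calls moved with the scaling. It was 52.9% under quantile normalization and 41.9% in the values reported for old against young IEL, 53.5% and 42.8% for young IEL against young SP, 53.1% and 26.1% for old IEL against old SP, 22.3% and 87.0% for the cd27cd28 fraction against old IEL CD4+ T cells, 57.6% and 95.9% for the others fraction against them, and 38.5% and 21.7% for the difference of age differences. Quantile normalization moved the median log2 difference of all probes by 0.24, 0.44, -0.58, -0.56 and 0.20 in the last 5 of these comparisons and by -0.12 in old against young SP. With the median of all probes subtracted the last 5 were 66.1%, 64.3%, 14.3%, 52.8% and 35.1%. Signals of Havcr2, and of Entpd1 in young SP, lie too near the blank spots for a fold to be precise.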
